A study of Mus musculus with 5 samples.

Results

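The surface markers described here are Pdgfra, Pdgfrb, Ly6a, Thy1, Cd200, Eng, Nt5e, Itgav and Vcam1, 9 of the 30099 gene symbols listed over the 5 libraries. They are the mouse genes of proteins that are stained to sort skeletal stem and progenitor cells. They were chosen as a list of names, with earlier results of these data known. They were read as UMIs, counts of single captured RNA molecules, in gated cells. Such a cell had at least 500 genes, at least 1000 UMIs and under 25% of UMIs from mitochondrial genes. It also had no UMI of Ptprc, the gene of the leukocyte protein CD45, and none of Cdh5, the cadherin gene of endothelium. The gate held 39900 of 57968 deposited cells, 3364 in exhausted, 3921 in naive, 18266 in aged-injury, 6946 in aged and 7403 in control.

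Every library came from femur marrow of mice with the alleles Lepr-cre and R26R-tdTomato, from which tdTomato-positive cells were sorted and loaded on a BD Rhapsody instrument. In such mice Cre made under the leptin receptor gene switches on the red reporter, so the sort was set to collect cells that use or once used that gene, and skeletal progenitors outside that lineage were not its aim. The exhausted mice were 15 weeks old and had marrow ablations at the ages of 9 and 13 weeks. The naive mice were 15 weeks old and were ablated once, at 13 weeks. The aged-injury mice were 18 months old, 1 week after 1 ablation. The aged mice were 18 months old and the control mice 15 weeks old, both uninjured. There was 1 library per group and no batch and no count of animals is given in the labels, so library, age, injury and time since injury cannot be told apart from whatever else differed between preparations. With no replicate library, how far animals of one group vary is not known, and intervals cover counting error only.

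Skeletal stem and progenitor cells are not defined by a single surface protein, and sorting schemes combine several. PDGF receptor alpha marks mesenchymal cells in general and, with the Ly6a product SCA-1, a rare perivascular fraction of mouse bone. The integrin alpha-V chain with CD200, in the absence of THY1, aminopeptidase A (Enpep), endoglin and TIE2, is the gate of the mouse skeletal stem cell of growth plate and callus, and its endoglin-positive or CD200-negative neighbours are gates of its progeny. THY1, CD73 (the product of Nt5e) and endoglin together are the classic surface triad of cultured human stromal cells. VCAM1 and PDGF receptor beta are used for the perivascular stroma that holds blood stem cells in marrow. A captured RNA molecule is no measure of surface protein, and a gene with few copies is missed in many cells that use it.

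Gated cells were deep enough to show the common markers in most cells, and the libraries differed in depth and in leftover blood cells. The median UMI count per gated cell was 6476 in exhausted, 7017 in naive, 9472.5 in aged-injury, 6527 in aged and 8204 in control. Cxcl12, the chemokine gene that defines marrow reticular stroma, had a UMI in 92.5 to 99.6% of gated cells and Lepr in 78.4 to 95.8%. The tdTomato transcript was counted in 29.0 to 43.8%. Clusters that were not stromal still held 614 gated cells in exhausted, 327 in naive, 332 in aged-injury, 286 in aged and 494 in control, most of them erythroid-like cells, which lack Ptprc. Their lists moved with the libraries: the 8 erythroid markers summed to 44359 in exhausted, 22331 in naive, 2004 in aged-injury, 14046 in aged and 21558 in control CPM (UMIs of a gene scaled to an equal UMI total per library), and the 8 endothelial markers to 18.5 to 27.1 CPM with Cdh5 at 0 by the gate. Their part in the levels per library was not tested, and ratios within the stromal clusters alone are given beside each comparison. Cxcl12 was also counted in the erythroid-like clusters, at 893 to 14969 CPM. A UMI of it thus does not by itself mark a stromal cell. Between 5 and 16 cell labels per library also occurred in another one.

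The order in which the 9 genes were detected had the same outline in every library. Vcam1, Pdgfrb, Pdgfra and Itgav were each found in more gated cells than Cd200, Cd200 in more than Eng, and Eng in more than Thy1, Ly6a and Nt5e, which stayed under 10%. The mean number of the 9 genes seen per cell was 2.94 in exhausted, 3.39 in naive, 4.05 in aged-injury, 3.64 in aged and 3.87 in control. The share of gated cells with none of them was 15.2% in exhausted, 9.10% in naive, 5.102% in aged-injury, 4.49% in aged and 4.54% in control, and 1 cell in exhausted, 0 in naive, 1 in aged-injury, 0 in aged and 1 in control held all 9. After each cell was thinned to 3000 UMIs the mean was 2.24 in exhausted, 2.64 in naive, 2.87 in aged-injury, 2.95 in aged and 2.85 in control, so exhausted had the lowest mean at equal depth too. Thinning kept 2699 cells in exhausted, 3251 in naive, 15665 in aged-injury, 5569 in aged and 6844 in control, those with 3000 UMIs or more. The share with none was then 3.07 to 18.0%. Exhausted also had the most gated cells outside the stromal clusters, and their part in these values was not tested.

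**Figure D1:**
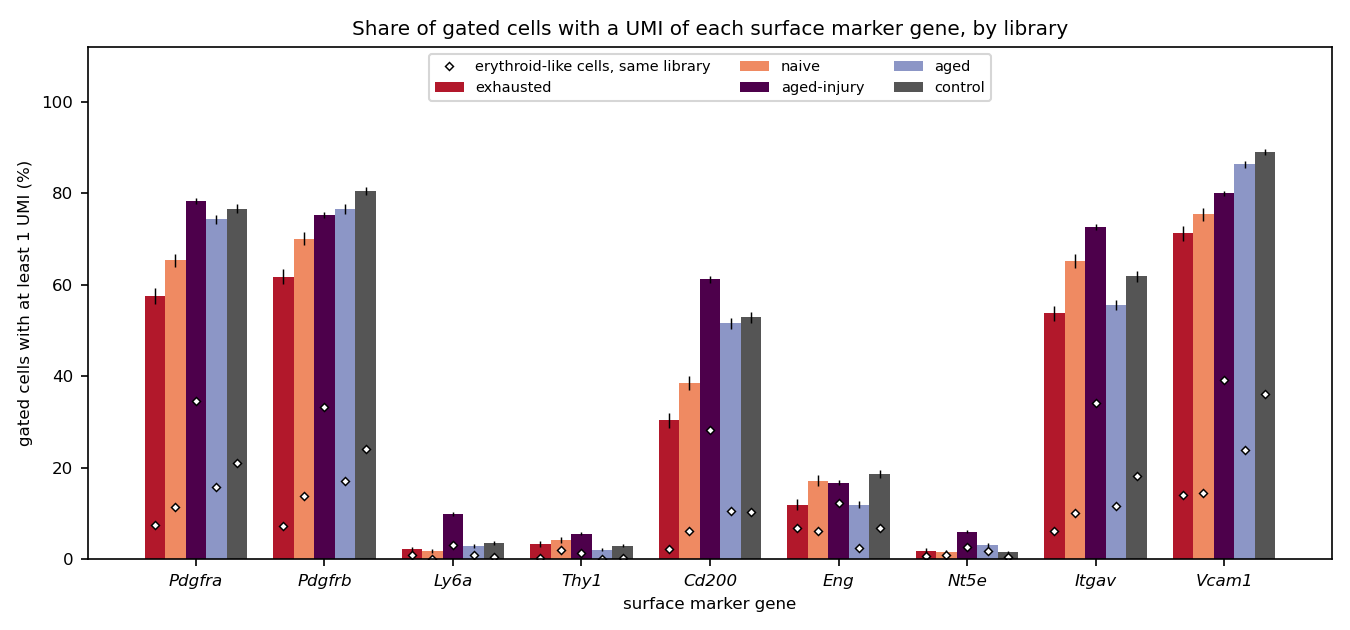
Share of gated cells with at least 1 UMI of each surface marker gene (vertical axis, %), in bars for exhausted, naive, aged-injury, aged and control from left to right, with exact 95% intervals of counting error. Open diamonds give the share in erythroid-like cells of the same library, which should lack most of these genes. Vcam1 lies at 86.3% in aged and 89.0% in control, above the 3 ablated libraries, and Ly6a, Thy1 and Nt5e lie under 10% in every library.

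UMIs of the surface marker genes were also counted in erythroid-like and neutrophil-like cells, in shares that differed between genes and libraries. These shares are called background here. Whether free RNA or another source gave these UMIs was not tested. In erythroid-like cells, with a median of 7558 to 8546.5 UMIs per library, Vcam1 was found in 13.9% in exhausted, 14.5% in naive, 39.1% in aged-injury, 23.8% in aged and 36.1% in control. The corresponding background of Pdgfra was 7.38 to 34.5%, of Cd200 2.11 to 28.2% and of Nt5e 0.478 to 2.73%. In neutrophil-like cells Ly6a was found in 1.46% in exhausted, 2.01% in naive, 15.2% in aged-injury, 2.46% in aged and 2.98% in control, at median depths of 6392 UMIs in exhausted, 8467.5 in naive, 12502 in aged-injury, 8252 in aged and 9262 in control, and the aged-injury value rests on 5 of 33 cells. In erythroid-like cells Ly6a was found in 0.844% in exhausted, 0% in naive, 3.18% in aged-injury, 0.833% in aged and 0.478% in control. Over all gated cells the Ly6a share was above that of erythroid-like cells and at or near that of neutrophil-like cells in every library. Its share over all gated cells is therefore not read as a difference between libraries. The CPM of Ly6a over all gated cells is given below with the same limit, and Ly6a is also described by cluster. Whether neutrophil-like cells use Ly6a themselves was not tested. Neutrophil-like cells held Nt5e in 25.6 to 36.4%, more than the gated cells did, so they are no background for it.

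Among the growth factor receptors, Pdgfra, the receptor for PDGF-A and PDGF-C, was found in 57.6% of gated cells in exhausted, 65.3% in naive, 78.3% in aged-injury, 74.3% in aged and 76.6% in control. Its level was 289 CPM in exhausted, 343 in naive, 365 in aged-injury, 449 in aged and 395 in control. The share was highest in aged-injury and the level in aged, so no order is read between these libraries, but exhausted was lowest on both scales. Pdgfrb, the receptor for PDGF-B that pericytes need, was found in 61.7% in exhausted, 70.1% in naive, 75.2% in aged-injury, 76.6% in aged and 80.5% in control. Its level was 282 CPM in exhausted, 337 in naive, 252 in aged-injury, 414 in aged and 369 in control, lowest in aged-injury although its share there was not. Eng, endoglin, a co-receptor for TGF-beta family ligands, was found in 11.9% in exhausted, 17.2% in naive, 16.7% in aged-injury, 11.8% in aged and 18.6% in control. Its level was 19.5 CPM in exhausted, 29.7 in naive, 20.5 in aged-injury, 19.9 in aged and 27.3 in control, higher in naive and control than in the other 3 libraries. Between libraries, 67.3 to 81.0% of the Eng-positive cells had a single UMI, so the absence of Eng in a cell rests on few molecules.

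Among the adhesion genes, Vcam1, the ligand of the integrin alpha-4 on blood cells, was found in 71.2% in exhausted, 75.4% in naive, 80.0% in aged-injury, 86.3% in aged and 89.0% in control. Its level was 802 CPM in exhausted, 879 in naive, 585 in aged-injury, 1061 in aged and 1205 in control. Both uninjured libraries stood above the 3 ablated ones on both scales over all gated cells. In the reticular-like clusters described below the level had no such split. It was 1221 CPM in exhausted, 1378 in naive, 825 in aged-injury, 1170 in aged and 1427 in control. Reticular-like cells were 46.4% of gated cells in exhausted, 33.5% in naive, 49.4% in aged-injury, 74.1% in aged and 73.0% in control, and their part in the level was not tested. Itgav, the alpha-V chain that pairs with several beta chains to bind fibronectin, vitronectin and osteopontin, was found in 53.7% in exhausted, 65.2% in naive, 72.7% in aged-injury, 55.6% in aged and 61.8% in control. Its level was 186 CPM in exhausted, 260.1 in naive, 241 in aged-injury, 184 in aged and 177 in control, highest in naive, and the depth-thinned share was highest in naive too, at 47.6% against 35.7 to 45.6% in the other libraries.

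Among the small immunoglobulin-like and lipid-anchored proteins, Cd200, which restrains myeloid cells through the receptor Cd200r1, was found in 30.3% in exhausted, 38.5% in naive, 61.2% in aged-injury, 51.5% in aged and 52.8% in control. Its level was 98.5 CPM in exhausted, 133 in naive, 253 in aged-injury, 185 in aged and 161 in control. Aged-injury was highest and exhausted lowest on both scales, and also after thinning, at 18.2% in exhausted, 24.5% in naive, 40.2% in aged-injury, 36.3% in aged and 31.8% in control. Ly6a, SCA-1, a lipid-anchored protein, was found in 2.11% in exhausted, 1.79% in naive, 9.79% in aged-injury, 2.81% in aged and 3.49% in control, and its level was 12.3 CPM in exhausted, 8.91 in naive, 47.2 in aged-injury, 17.2 in aged and 24.5 in control. The CPM was highest in aged-injury and lowest in naive. Thy1, a lipid-anchored protein of fibroblasts and T cells, was found in 3.21% in exhausted, 4.11% in naive, 5.55% in aged-injury, 2.06% in aged and 2.92% in control. Its level was 19.95 CPM in exhausted, 28.2 in naive, 22.7 in aged-injury, 11.4 in aged and 18.3 in control, highest in naive on this scale but not by share. Nt5e, CD73, the surface enzyme that makes adenosine from AMP, was found in 1.81% in exhausted, 1.56% in naive, 5.96% in aged-injury, 3.08% in aged and 1.55% in control. Its level was 3.64 CPM in exhausted, 3.93 in naive, 14.6 in aged-injury, 6.06 in aged and 2.25 in control, so the 2 old libraries stood above the 3 young ones.

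Few of the 9 genes passed 2-fold between libraries, the size used here for a call in the absence of replicates, with at least 5 CPM in either library. For 1 ablation in young mice, naive over control, 1 of the 8 members measured was called, Ly6a, lower at 0.364 (95% interval 0.321 to 0.411), where 5.99% of 11052 genes were called, 4.31% higher and 1.68% lower. Nt5e did not reach 5 CPM in either library. Thy1 at 1.55 (95% interval 1.42 to 1.68) and Itgav at 1.47 (95% interval 1.43 to 1.51) were higher within 2-fold, and Vcam1 at 0.729 (95% interval 0.719 to 0.739) lower. In the stromal clusters alone Ly6a was at 0.362, Thy1 at 1.55, Itgav at 1.49 and Vcam1 at 0.738.

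For 2 ablations, exhausted over control, 0 of 8 measured members passed 2-fold, where 8.23% of all genes did, 6.82% higher and 1.4% lower. Ly6a lay at the edge, at 0.501 (95% interval 0.444 to 0.564). Of the other 7 measured members, Cd200 was at 0.612 (95% interval 0.586 to 0.638), Vcam1 at 0.665 (95% interval 0.655 to 0.675), Eng at 0.716, Pdgfra at 0.731 and Pdgfrb at 0.765, all lower, while Itgav at 1.05 and Thy1 at 1.09 were near 1. In the stromal clusters alone, without the erythroid-like and other blood cells of this library, Pdgfra was at 0.840, Vcam1 at 0.761 and Cd200 at 0.705, and Ly6a at 0.557.

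For the second ablation against the first, exhausted over naive, 0 of 8 measured members passed 2-fold, where 4.47% of all genes did, 3.14% higher and 1.32% lower. Eng was lower at 0.659 (95% interval 0.592 to 0.732) and Thy1 at 0.706 (95% interval 0.635 to 0.786), and Ly6a was higher at 1.38 (95% interval 1.17 to 1.61). In the stromal clusters alone Eng was at 0.704, Thy1 at 0.784 and Ly6a at 1.54, and Vcam1 turned, at 1.03 against 0.913 in all gated cells. The 3 comparisons among young libraries share the naive, exhausted and control libraries, the comparison by age uses control again, and aged enters both comparisons of old mice.

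For age without injury, aged over control, 1 of 9 members was called, Nt5e, higher at 2.70 (95% interval 2.21 to 3.30), where 1.71% of all genes were called, 0.687% higher and 1.03% lower. The ratio exceeded that of 99.7% of the 10625 genes measured in this pair, though it rests on 310 UMIs in aged and 149 in control. Pdgfra at 1.14, Pdgfrb at 1.12 and Cd200 at 1.15 were slightly higher, and Thy1 at 0.625, Ly6a at 0.704 and Eng at 0.728 lower. In the stromal clusters alone Nt5e was at 2.64, Ly6a at 0.620 and Thy1 at 0.605.

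For ablation in old mice, aged-injury over aged, 2 of 9 members were called, both higher, where 8.46% of all genes were called, 5.25% higher and 3.21% lower. Ly6a was at 2.74 (95% interval 2.56 to 2.94) and Nt5e at 2.41 (95% interval 2.15 to 2.72). Thy1 at 1.98 (95% interval 1.82 to 2.16) fell just inside the limit. Vcam1 at 0.551 (95% interval 0.546 to 0.557) and Pdgfrb at 0.608 (95% interval 0.598 to 0.618) were lower within 2-fold. In the stromal clusters alone Ly6a was at 3.002, Nt5e at 2.38, Thy1 at 1.92, Vcam1 at 0.534 and Pdgfrb at 0.589. Ly6a thus had opposite directions in the 2 single-ablation pairs, which differ in age and in the time since surgery, 2 weeks in naive and 1 week in aged-injury, and the difference was not tested.

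The median log2 ratio of the measured members was -0.17 in naive over control, beside 0.15 for all measured genes, and -0.47 in exhausted over control, beside 0.07 for all measured genes. It was -0.34 in exhausted over naive, beside -0.07 for all measured genes. It was 0.06 in aged over control, beside -0.05 for all measured genes, and 0.39 in aged-injury over aged, beside 0.09 for all measured genes.

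Levels in the clusters showed where each marker was used. The 39900 gated cells fell mostly into 17 stromal clusters, made without the 9 genes, Ptprc, Cdh5 and the transgenes. With other random starts of the clustering the fibroblast-like, pericyte and smooth muscle-like and chondrocyte-like clusters kept at least 98.7% of their cells, and the whole stroma was the same for at least 99.9% of gated cells. The reticular-like, preosteoblast-like and osteoblast-like classes kept 53.2%, 76.0% and 40.6% in the less favourable run, so their values are read as those of 1 clustering.

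**Figure D2:**
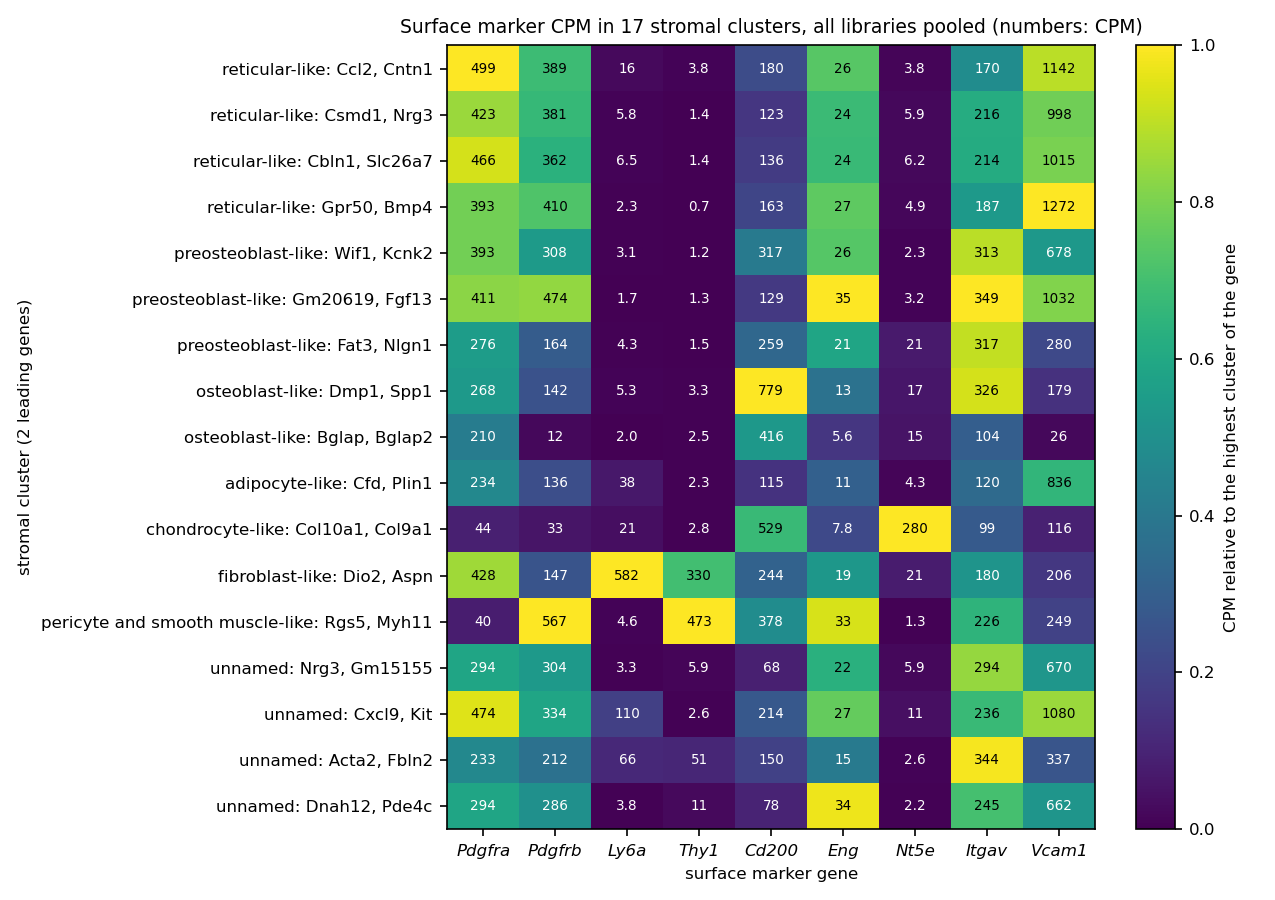
Level of each surface marker gene (columns) in the 17 stromal clusters (rows, with their 2 leading genes), over all libraries. The number in a field is CPM and the colour is CPM relative to the highest cluster of that gene. Ly6a peaks in the fibroblast-like cluster, Thy1 in that and in the pericyte and smooth muscle-like cluster, and Nt5e in the chondrocyte-like cluster.

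In mural cells Pdgfrb was high and Pdgfra low. In the pericyte and smooth muscle-like cluster, led by Rgs5 and Myh11, Pdgfrb stood at 567 CPM and was found in 86.8% of 537 cells, its highest level, while Pdgfra stood at 40.3 CPM and was found in 14.3%. The 4 reticular-like clusters held both, Pdgfra at 393 to 499 CPM and Pdgfrb at 362 to 410.2 CPM. The osteoblast-like cluster led by Bglap, the osteocalcin gene, had 210.0 CPM of Pdgfra and 12.1 CPM of Pdgfrb, both below the reticular-like range. Both were low in the chondrocyte-like cluster, at 43.9 CPM for Pdgfra and 32.5 CPM for Pdgfrb.

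Vcam1 was lowest and Cd200 highest in the osteoblast-like and chondrocyte-like clusters. Vcam1 stood at 998 to 1272 CPM in the reticular-like clusters, at 179 CPM in the osteoblast-like cluster led by Dmp1 and Spp1, and at 26.4 CPM in the one led by Bglap. Cd200 stood at 123 to 180.2 CPM in the reticular-like clusters. It stood at 779 CPM in the Dmp1 cluster, where 94.9% of cells held it, 529 CPM in the chondrocyte-like cluster and 416 CPM in the Bglap cluster. The preosteoblast-like clusters did not line up: the one led by Gm20619 and Fgf13 had Vcam1 at 1032 CPM and Cd200 at 129 CPM, inside the reticular-like ranges, while those led by Wif1 and by Fat3 had Vcam1 at 678 and 279.5 CPM and Cd200 at 317 and 259 CPM. Mural cells held Cd200 at 378 CPM and Vcam1 at 249 CPM. In the Dmp1 cluster Cd200 was high in each of the 4 libraries with at least 50 cells there, at 516 CPM in naive, 837 in aged-injury, 715 in aged and 607 in control.

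Itgav and Eng had the smallest ratios of the highest to the lowest cluster among the 9 genes. Itgav ranged from 98.7 to 349 CPM and was found in at least 49.3% of the cells of every cluster, and Eng ranged from 5.57 to 35.4 CPM. The cells that the gate removed for Cdh5 held more Eng than the stroma did, in 70.3% of them in exhausted, 73.1% in naive, 69.1% in aged-injury, 52.3% in aged and 61.6% in control, and more Ly6a, in 43.0 to 62.9%.

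Nt5e was highest in chondrocyte-like cells. In that cluster, led by Col10a1, Col9a1 and Hapln1, it stood at 280.0 CPM and was found in 79.0% of 176 cells, of which 171 came from aged-injury. In the next highest cluster, the fibroblast-like one, it stood at 21.0 CPM.

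Ly6a and Thy1 were concentrated in few cells. The fibroblast-like cluster, led by Dio2, Aspn, Thbs4 and Ccn3, held 64 gated cells in exhausted, 30 in naive, 458 in aged-injury, 71 in aged and 156 in control. Its share of all Ly6a UMIs was 70.9% in exhausted, 56.2% in naive, 35.7% in aged-injury, 59.6% in aged and 84.8% in control. In the 4 libraries with at least 50 such cells Ly6a was found in 40.6% of them in exhausted, 51.5% in aged-injury, 81.7% in aged and 83.3% in control. Its level there was 301 CPM in exhausted, 518 in aged-injury, 892 in aged and 908 in control, lower in both ablated libraries than in both uninjured ones. Thy1 in the same cells stood at 218 CPM in exhausted, 236 in aged-injury, 575 in aged and 649.6 in control and Pdgfra at 352 CPM in exhausted, 306 in aged-injury, 854 in aged and 824 in control, with the same split. Nt5e had the opposite one, at 30.6 CPM in exhausted, 26.3 in aged-injury, 10.2 in aged and 0.659 in control. These Nt5e levels rest on 24 UMIs in exhausted, 177 in aged-injury, 6 in aged and 1 in control. These 4 sets hold 64, 458, 71 and 156 cells of 1 library each, and whether they are the same kinds of fibroblast in each library was not tested.

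Thy1 had a second source in mural cells. The pericyte and smooth muscle-like cluster held 54.8% of the Thy1 UMIs in exhausted, 54.5% in naive, 26.2% in aged-injury, 17.6% in aged and 9.15% in control, and the fibroblast-like cluster 31.5% in exhausted, 21.2% in naive, 33.9% in aged-injury, 57.9% in aged and 81.3% in control. Control was thus mostly fibroblast-like and naive mostly mural by source. In the mural cells Thy1 stood at 913 CPM in exhausted, 584 in naive and 379 in aged-injury, and Ly6a was found in 0% of them in exhausted, 2.75% in naive and 3.41% in aged-injury. The neutrophil-like background of Ly6a was 1.46% in exhausted, 2.01% in naive and 15.2% in aged-injury.

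In aged-injury, Ly6a was also held by clusters that were rare elsewhere. An unnamed stromal cluster led by Cxcl9, Kit and Cxcl10, with 10 gated cells in exhausted, 31 in naive, 1392 in aged-injury, 48 in aged and 17 in control, had Ly6a at 117 CPM in aged-injury, in 20.3% of its cells. Another, led by Acta2, Fbln2 and Hmga2, with 39 gated cells in exhausted, 105 in naive, 1154 in aged-injury, 2 in aged and 3 in control, had Ly6a at 68.6 CPM and Thy1 at 49.0 CPM in aged-injury. In the 105 naive cells of the Acta2 cluster Ly6a stood at 28.7 CPM and Thy1 at 98.0 CPM. The fibroblast-like, Cxcl9 and Acta2 clusters gave 35.7%, 23.1% and 21.2% of the Ly6a UMIs of aged-injury. Both unnamed clusters came mostly from aged-injury, so kind of cell and library cannot be told apart, and their borders depended on the clustering: with another random start the best matching cluster overlapped the Cxcl9 cluster by 33.8 to 39.5% and the Acta2 cluster by 54.7 to 57.9% of their joint cells. Where the genome annotation of an older mouse build was compared, 31.9% of the 31-base words of Ly6a transcripts also occurred in other genes, chiefly Ly6c1, Ly6i and Ly6c2, so reads may have been split between these paralogs, and at most 1.13% did for the other 8 genes.

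**Figure D3:**
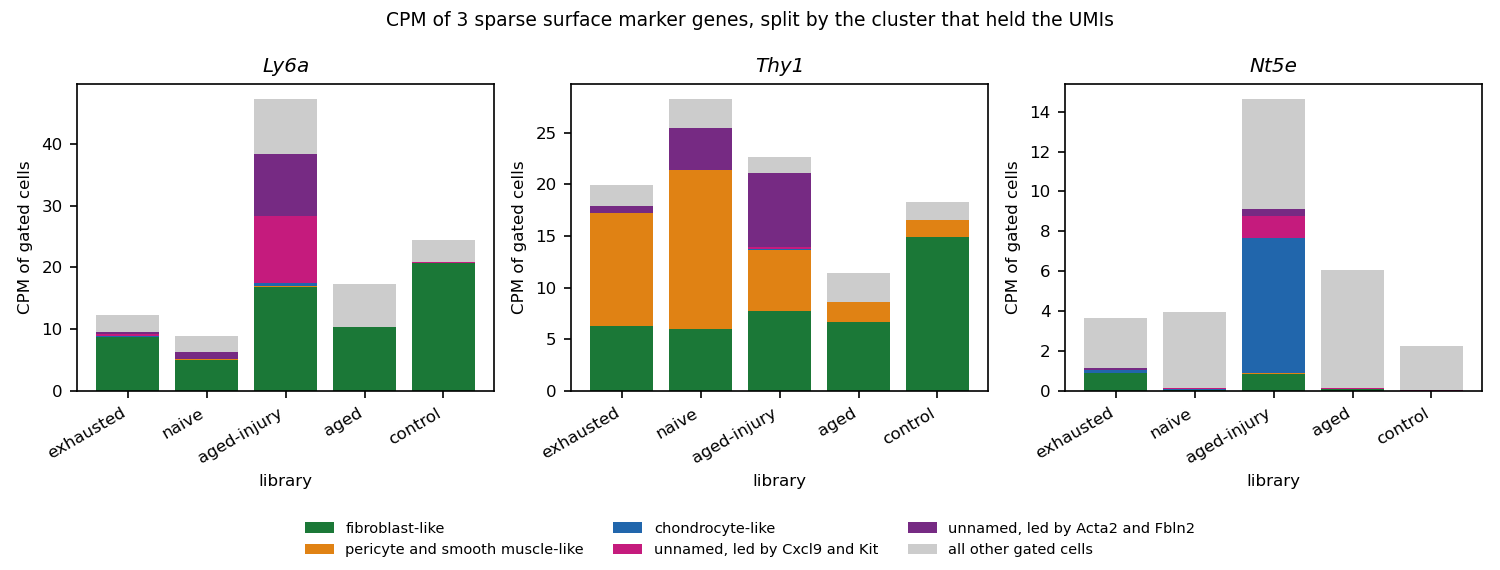
CPM of Ly6a, Thy1 and Nt5e in the gated cells of each library (bars, exhausted to control), split by the cluster that held the UMIs. The fibroblast-like part is the largest part of Ly6a in every library, the mural part is the largest part of Thy1 in exhausted and naive, and the chondrocyte-like part of Nt5e is visible in aged-injury.

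Outside these clusters the differences in Ly6a and Thy1 took another form. In the stroma without the fibroblast-like, mural and chondrocyte-like clusters Ly6a stood at 3.403 CPM in exhausted, 3.87 in naive, 32.4 in aged-injury, 5.21 in aged and 3.21 in control. There the ratio of naive over control was 1.21 (0.949 to 1.53), against 0.364 in all gated cells. With the fibroblast-like cluster alone left out it was 1.03, and that cluster held 30 gated cells in naive and 156 in control. The ratio of aged-injury over aged was 6.22 (5.48 to 7.09), and with the Cxcl9 and Acta2 clusters also left out it was 2.48 (2.17 to 2.84). The ratio of aged over control was 1.62 (1.34 to 1.97), against 0.704 in all gated cells. Thy1 of naive over control was 3.95 (3.13 to 5.01), and 1.57 (1.16 to 2.11) without the Cxcl9 and Acta2 clusters too.

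The higher Nt5e of the 2 old libraries also differed by source. The chondrocyte-like cells held 46.3% of the Nt5e UMIs of aged-injury and none of those of aged, and without the 3 clusters the ratio of aged-injury over aged was 1.22 (1.08 to 1.39), within 2-fold. The ratio of aged over control was 2.58 (2.10 to 3.17) there, still past 2-fold. By class, Nt5e of aged-injury over aged was 6.46 (2.71 to 20.2) in preosteoblast-like and 6.23 (1.71 to 51.6) in osteoblast-like cells. It was 2.59 (1.17 to 7.15) in fibroblast-like cells. These ratios rest on 5, 2 and 6 UMIs in aged. In reticular-like cells the ratio was 0.934 (0.805 to 1.09) and in the unnamed stromal clusters 0.925 (0.584 to 1.55). The 3 clusters each held at most 0.851% of the Vcam1 UMIs and 2.93% of the Pdgfrb UMIs of aged-injury, so leaving them out could move these genes little. Without them aged-injury over aged was 0.558 (0.552 to 0.563) for Vcam1 and 0.601 (0.591 to 0.611) for Pdgfrb. In reticular-like cells it was nearer 1, at 0.705 (0.697 to 0.714) for Vcam1 and 0.738 (0.724 to 0.752) for Pdgfrb. Other classes differed from these values. For Vcam1 it was 0.532 in preosteoblast-like, 0.398 in osteoblast-like and 0.429 in fibroblast-like cells, and 0.641 in the unnamed stromal clusters. For Pdgfrb it was 0.596, 0.338, 0.766 and 0.644 in the same order. Without the 3 clusters Itgav of naive over control was 1.49 (1.45 to 1.53) and Cd200 of exhausted over control 0.659 (0.629 to 0.690).

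**Figure D4:**
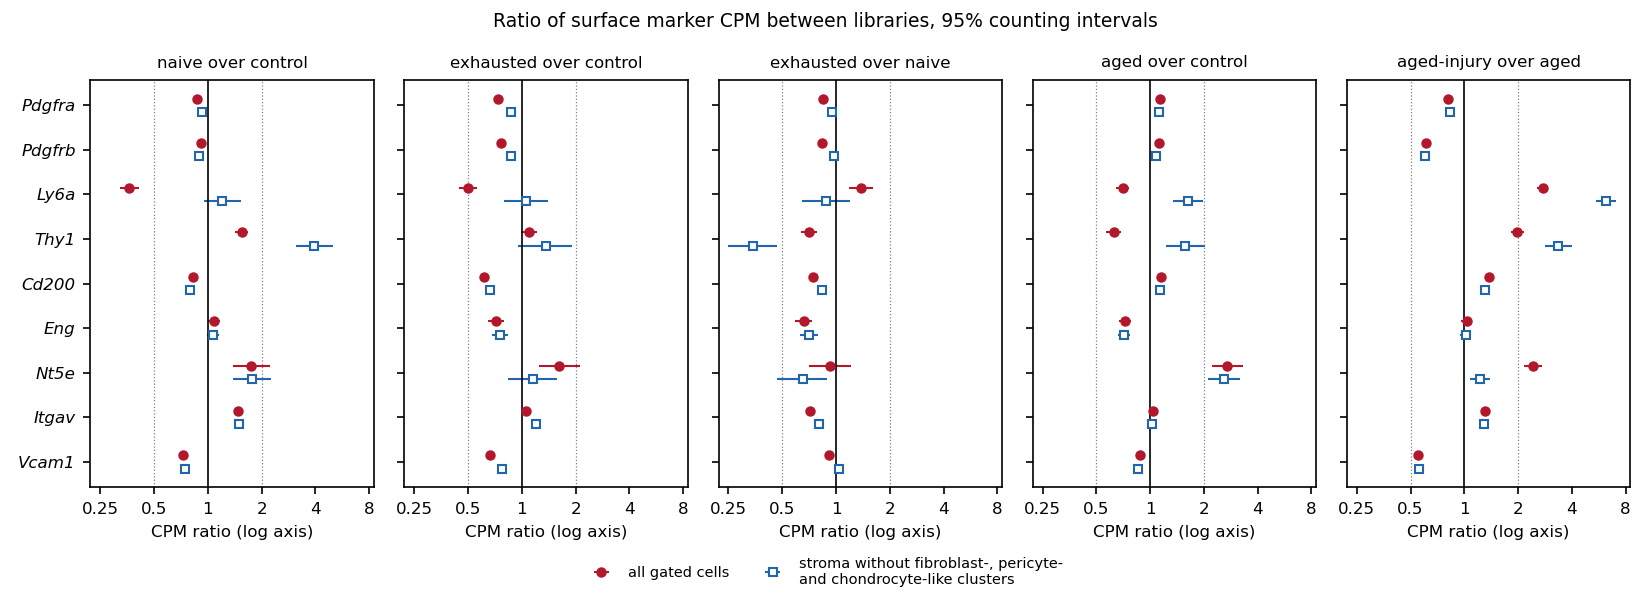
Ratio of CPM between libraries for each surface marker gene (log axis), in all gated cells (filled red circles) and in the stroma without the fibroblast-, pericyte- and chondrocyte-like clusters (open blue squares), with 95% intervals of counting error. Dotted lines mark 2-fold. For Ly6a the 2 symbols lie on opposite sides of 1 in naive over control and in aged over control.

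Joint detection was counted for all 36 pairs of the 9 genes. Measured as the number of cells with both genes over the number expected from independent detection, 8 pairs in exhausted, 4 in naive, 1 in aged-injury, 2 in aged and 3 in control reached 1.5 and 1 pair in exhausted, 1 in naive, 0 in aged-injury, 0 in aged and 2 in control were at 1/1.5 or less. That ratio cannot rise far for genes found in most cells, and deep cells show more of every gene. Odds ratios within 10 depth strata were therefore used beside it, in stromal clusters unless all gated cells are named. By observed over expected, Ly6a with Thy1 was the single pair that reached 1.5 in every library. By odds ratios in all gated cells 8 pairs did, Ly6a with Thy1 among them, the others being pairs of Pdgfra, Pdgfrb, Eng, Itgav and Vcam1.

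**Figure D5:**
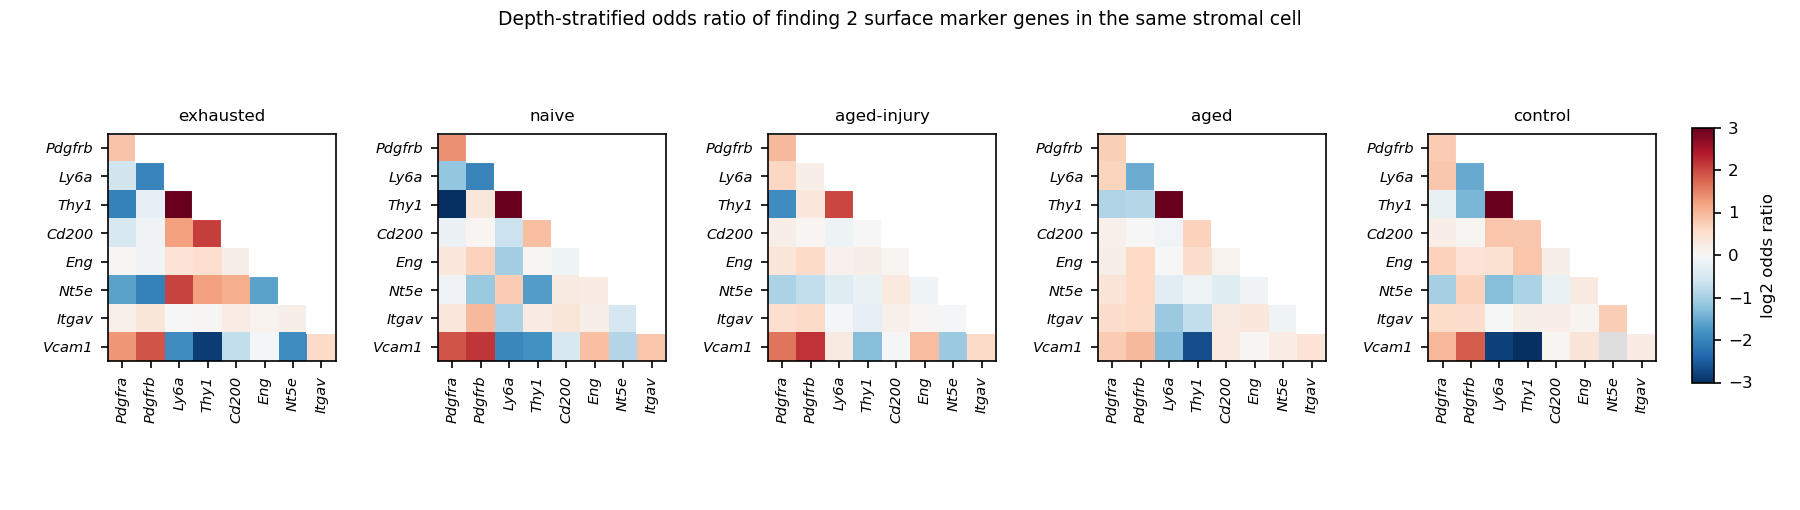
Depth-stratified odds ratio (log2 colour scale, capped at 3) that 2 surface marker genes are found in the same stromal cell, for the 36 pairs in exhausted, naive, aged-injury, aged and control. Grey marks a pair with no defined value. Ly6a with Thy1 is red in each panel and Thy1 with Vcam1 is blue in each panel.

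Ly6a and Thy1 were often found in the same cells. They were found together in 22 gated cells in exhausted, 21 in naive, 359 in aged-injury, 54 in aged and 128 in control, where independent detection gave 2.28 in exhausted, 2.87 in naive, 99.3 in aged-injury, 4.01 in aged and 7.53 in control. The ratio was 9.65 in exhausted, 7.31 in naive, 3.61 in aged-injury, 13.5 in aged and 17.004 in control, and the odds ratio in the stroma 12.6 in exhausted, 9.67 in naive, 4.02 in aged-injury, 26.9 in aged and 74.9 in control. Of the Ly6a-positive cells, 30.99% in exhausted, 30% in naive, 20.1% in aged-injury, 27.7% in aged and 49.6% in control held Thy1. In control 116 of the 128 cells with both lay in the fibroblast-like cluster, and in aged-injury 172 of 359 lay there and 131 in the Acta2 cluster. Without the fibroblast-like cluster the ratio of observed to expected was 4.13 in exhausted, 4.41 in naive, 2.85 in aged-injury, 5.02 in aged and 8.60 in control, still over 1.5 in every library.

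Vcam1 stood apart from Thy1 and together with the PDGF receptors. The odds ratio of Thy1 with Vcam1 in the stroma was 0.141 in exhausted, 0.282 in naive, 0.410 in aged-injury, 0.159 in aged and 0.117 in control, under 1 in every library. That of Ly6a with Vcam1 was 0.270 in exhausted, 0.260 in naive, 1.21 in aged-injury, 0.405 in aged and 0.143 in control, under 1 in all but aged-injury. Pdgfrb with Vcam1 had 3.70 in exhausted, 4.42 in naive, 4.47 in aged-injury, 1.96 in aged and 3.53 in control, and Pdgfra with Vcam1 2.47 in exhausted, 3.68 in naive, 3.04 in aged-injury, 1.69 in aged and 2.00 in control. Over all gated cells, where leftover blood cells hold both genes less often, the odds ratio of Pdgfrb with Vcam1 was 10.99 in exhausted, 7.78 in naive, 4.88 in aged-injury, 3.56 in aged and 8.23 in control.

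The 2 PDGF receptors were found in the same cells more often than depth alone gave. Of Pdgfra-positive cells, 82.3% in exhausted, 84.7% in naive, 84.4% in aged-injury, 85.5% in aged and 89.2% in control held Pdgfrb, and the odds ratio in the stroma was 1.82 in exhausted, 2.57 in naive, 1.98 in aged-injury, 1.64 in aged and 1.70 in control. Pdgfra with Thy1 had 0.245 in exhausted, 0.111 in naive, 0.273 in aged-injury, 0.539 in aged and 0.852 in control, under 1 in every library and lowest in naive. Cd200 with Itgav, the core of the skeletal stem cell gate, had 1.17 in exhausted, 1.30 in naive, 1.11 in aged-injury, 1.20 in aged and 1.15 in control, near 1 throughout. Cd200 with Thy1 had 4.22 in exhausted, 1.86 in naive, 0.999 in aged-injury, 1.61 in aged and 1.75 in control, above 1 except in aged-injury, where it was at 1.

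RNA versions of 8 marker combinations modelled on sort gates were counted, with a positive sign for at least 1 UMI and a negative one for none. Cells negative for a gene include shallow cells that missed it. The gate of Pdgfra and Ly6a, the rare fraction of mouse bone, held 1.55% of gated cells in exhausted, 1.07% in naive, 9.03% in aged-injury, 2.49% in aged and 3.15% in control. The aged-injury value had an exact 95% interval of 8.62% to 9.45% and the aged value one of 2.14% to 2.88%. After thinning to 3000 UMIs the shares were 1.04% in exhausted, 0.523% in naive, 3.50% in aged-injury, 1.36% in aged and 1.86% in control, with aged-injury highest again, as it was for Ly6a in neutrophil-like cells. Cells of the fibroblast-like cluster made up 42.3% of it in exhausted, 28.6% in naive, 13.3% in aged-injury, 31.2% in aged and 52.8% in control. In aged-injury most cells of the gate lay in other clusters, with 37.9% of its cells in unnamed stromal clusters. Of its cells 55.8% in exhausted, 47.6% in naive, 60.5% in aged-injury, 53.8% in aged and 54.1% in control held a tdTomato UMI.

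The stem cell gate of Itgav and Cd200, negative for Thy1, Enpep, Eng and Tek, held 11.9% of gated cells in exhausted, 14.6% in naive, 19.0% in aged-injury, 12.9% in aged and 14.9% in control. The same gate without Cd200, which is used for an early progeny, held 19.8% in exhausted, 18.9% in naive, 10.7% in aged-injury, 11.1% in aged and 12.1% in control. The cells of the first gate were deep, with a median of 8164 to 11719 UMIs per library, and those of the second shallow, with 4170 to 6231. At 3000 UMIs per cell the stem cell gate held 6.71% in exhausted, 9.60% in naive, 13.6% in aged-injury, 10.1% in aged and 8.94% in control and the gate without Cd200 22.5% in exhausted, 25.3% in naive, 18.7% in aged-injury, 14.6% in aged and 17.9% in control. Aged-injury was highest and exhausted lowest for the stem cell gate at both depths. Reticular-like cells made up 49.2% of the stem cell gate in exhausted, 28.8% in naive, 36.7% in aged-injury, 70.3% in aged and 71.7% in control, and Lepr was found in 92.5% in exhausted, 92.1% in naive, 89.2% in aged-injury, 98.1% in aged and 97.8% in control. These are shares of a sort for the Lepr lineage, and the gate was defined on growth plate and callus cells. The gate of Itgav and Eng held 4.99% in exhausted, 7.86% in naive, 5.55% in aged-injury, 3.31% in aged and 6.42% in control, and 1.70% in exhausted, 3.38% in naive, 2.16% in aged-injury, 1.44% in aged and 2.02% in control at 3000 UMIs, highest in naive at both depths.

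The triad of Thy1, Nt5e and Eng was found in 1 cell in exhausted, 1 in naive, 10 in aged-injury, 0 in aged and 1 in control. With the limit of 3 counts set for a count of 0, 0 of 6946 aged cells allows up to 0.0432% of cells with a UMI of all 3, which is no limit on cells that use the genes. The gates of paired common genes held larger shares: Pdgfrb with Vcam1 56.2% in exhausted, 62.8% in naive, 68.7% in aged-injury, 71.4% in aged and 77.4% in control, Pdgfra with Pdgfrb 47.4% in exhausted, 55.3% in naive, 66.1% in aged-injury, 63.5% in aged and 68.4% in control, and Pdgfra with Itgav 40.6% in exhausted, 50.2% in naive, 63.3% in aged-injury, 47.7% in aged and 53.8% in control. At 3000 UMIs the last of these held 20.04% in exhausted, 27.5% in naive, 28.0% in aged-injury, 24.5% in aged and 23.1% in control.

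Ligands and partners of the markers were counted by the same 2-fold rule in 7 lists, beside the shares of all genes called in each comparison, 8.46% in aged-injury over aged, 5.99% in naive over control, 8.23% in exhausted over control, 4.47% in exhausted over naive and 1.71% in aged over control. Of the 8 genes for beta chains and ligands of integrin alpha-V, aged-injury over aged had 2 higher and 1 lower of 6 measured, naive over control 2 higher and 0 lower of 6 measured, exhausted over control 1 higher and 0 lower of 6 measured, aged over control 1 higher and 0 lower of 6 measured and exhausted over naive 0 higher and 2 lower of 6 measured. Fn1, fibronectin, stood at 187 CPM in exhausted, 344 in naive, 665 in aged-injury, 21.7 in aged and 41.4 in control, so that every ablated library was above both uninjured ones. Spp1, osteopontin, stood at 624 CPM in exhausted, 1409.7 in naive, 3201 in aged-injury, 554 in aged and 761 in control and passed 2-fold in aged-injury over aged, higher, and in exhausted over naive, lower. Vtn, vitronectin, stood at 12.002 CPM in exhausted, 12.1 in naive, 24.6 in aged-injury, 53.8 in aged and 16.7 in control, highest in aged. Itgb3, the beta chain of the vitronectin receptor, stood at 15.7 CPM in exhausted, 38.4 in naive, 21.2 in aged-injury, 16.1 in aged and 13.8 in control, highest in naive.

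The PDGF ligands changed little except Pdgfc, a ligand of Pdgfra. Pdgfc stood at 7.58 CPM in exhausted, 15.7 in naive, 14.4 in aged-injury, 4.22 in aged and 6.04 in control, past 2-fold in naive over control at 2.60 and in aged-injury over aged at 3.42, both higher, and in exhausted over naive at 0.483, lower. Pdgfa stayed at 87.0 to 114 CPM and Pdgfd, a ligand of Pdgfrb, at 94.5 to 118 CPM. Pdgfb was at most 1.75 CPM. Of the 8 endoglin partners, ligands and TGF-beta receptors, Tgfb2 alone passed 2-fold, in aged-injury over aged at 2.19 and in naive over control at 2.01, and stood at 27.5 CPM in exhausted, 45.5 in naive, 72.6 in aged-injury, 33.2 in aged and 22.6 in control. Acvrl1, the receptor that works with endoglin in endothelium, stayed at 17.8 to 23.1 CPM.

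In the adenosine list of 7 genes, Entpd1, the enzyme that supplies AMP to CD73, stood at 7.25 CPM in exhausted, 4.86 in naive, 7.89 in aged-injury, 15.2 in aged and 9.07 in control, and Adora2a, an adenosine receptor, at 3.76 CPM in exhausted, 3.14 in naive, 3.52 in aged-injury, 8.52 in aged and 5.15 in control. Adora2a was called lower in aged-injury over aged at 0.413, the one call in that list over the 5 comparisons. Of the 3 receptor genes of Vcam1 and Cd200, Itga4 stood at 71.2 CPM in exhausted, 35.1 in naive, 5.12 in aged-injury, 15.7 in aged and 23.3 in control, highest in exhausted, the library with the highest erythroid marker sum, and Itgb7 and Cd200r1 were at most 2.32 CPM and 0.589 CPM. Of the 8 Ly6 neighbours, Ly6e was abundant at 277 CPM in exhausted, 258 in naive, 394 in aged-injury, 269 in aged and 311 in control and none of the 5 comparisons called it. Ly6d, a B-lineage gene, was called higher in exhausted over naive at 2.27 and in exhausted over control at 2.69. Ly6c2 was called higher in exhausted over naive at 2.15 and lower in aged over control at 0.191. The 7 B-lineage markers summed to 269.8 CPM in exhausted, 119.6 in naive, 6.34 in aged-injury, 42.5 in aged and 84.2 in control in the gated cells.

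Among 19 other surface genes used for marrow stroma, aged-injury over aged had 7 higher and 4 lower of 16 measured, naive over control 6 higher and 1 lower of 15 measured, exhausted over control 5 higher and 1 lower of 15 measured, exhausted over naive 3 higher and 4 lower of 17 measured and aged over control 2 higher and 0 lower of 11 measured. Those called higher in aged-injury over aged were Mcam, Cd44, Alcam, Cspg4, F3, Pdpn and Cd248, and those called lower Ngfr, Cd24a, Itga6 and Lepr. Those called higher in naive over control were Mcam, Ngfr, Alcam, Cspg4, Itga6 and F3, and in exhausted over control Alcam, Cd24a, Cspg4, F3 and Dpp4, with Lepr lower in both. In exhausted over naive Cd24a, Dpp4 and Pdpn were called higher and Mcam, Ngfr, Cspg4 and Itga6 lower, and in aged over control Ngfr and Itga6 higher. Cspg4, the pericyte proteoglycan NG2, stood at 10.97 CPM in exhausted, 27.4 in naive, 33.9 in aged-injury, 3.13 in aged and 3.36 in control, and Mcam, CD146, at 5.96 CPM in exhausted, 15.5 in naive, 12.7 in aged-injury, 3.05 in aged and 3.59 in control, both higher in naive and aged-injury than in the other 3 libraries. Mural cells were 1.63% of gated cells in exhausted, 2.78% in naive, 1.77% in aged-injury, 0.418% in aged and 0.284% in control, and their part in these levels was not tested. Ngfr, CD271, stood at 1.18 CPM in exhausted, 5.24 in naive, 5.75 in aged-injury, 23.2 in aged and 1.52 in control and Itga6 at 4.05 CPM in exhausted, 10.1 in naive, 8.94 in aged-injury, 32.02 in aged and 3.83 in control, and both were highest in aged. Lepr itself stood at 1874 CPM in exhausted, 1662 in naive, 1693 in aged-injury, 4019 in aged and 4086 in control, below 0.5 of the uninjured level of the same age in each ablated library. Enpep, a negative of the stem cell gate, stood at 44.9 CPM in exhausted, 64.0 in naive, 86.3 in aged-injury, 98.6 in aged and 71.8 in control and Tek at 0.442 to 0.874 CPM.

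The genes whose levels most resembled each marker over the 17 stromal clusters were named by their correlation of log2(CPM + 1) among 9409 genes, as a description over clusters that share libraries and cells. Ly6a was most like Itih2 (r = 0.918), Ly6c1 (0.890) and Ssc5d (0.857), and Thy1 most like Eln, the elastin gene (0.947), and Tnxb, tenascin-X (0.933). Nt5e was most like Eps8l2 (0.918) and Hapln1, a cartilage matrix gene (0.910). Cd200 was most like Bmp2, a bone growth factor (0.919), and Pdgfra most like Cdh11, a cadherin of mesenchyme (0.956). For Vcam1 the closest genes were Il10rb (0.971), Soat1 and Smoc1, for Eng Plekha2 (0.949), Map3k12 and Scamp1, and for Itgav Lrrcc1 (0.895), Adcy3 and Socs5. Genes like Pdgfrb included Plekha2 (0.959) and Ptpra (0.958).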

How the data were processed

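Deposited whole-number UMI counts per gene and cell were used for 5 libraries of tdTomato-sorted mouse femur marrow, with 27162520 to 206179770 UMIs in the gated cells of a library. Seurat 5.1 and the genome build GRCm39 are named per the submitters' processing notes, while the authors' aligner, counter and doublet treatment were not given in the sources used here. The members and all gene lists were chosen with earlier results of these data known.

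Cells and genes were read with Python 3.11.15, pandas 2.3.3 and scipy 1.17.1. Clustering used scanpy 1.11.5 and leidenalg 0.10.2 (1994 variable genes, 30 components, 15 neighbours, resolution 1) and gave 32 clusters, 17 of them stromal. Clusters were named from marker lists of 21 classes, with at least 3 markers needed. No doublet caller was run, and leaving out the deepest 5% of cells was an alternative. Shares carry exact Clopper-Pearson 95% intervals and CPM ratios of summed UMIs exact binomial ones. Calls, pairs and odds ratios (Mantel-Haenszel over 10 strata) were tested on simulated data. The simulated counts were Poisson draws with no spread between animals or libraries and no mix of cell types. They thus cannot show how the calls hold under such spread. TMM factors came from edgeR 4.0.16. The text names every member, list genes past 2-fold or that a sentence is about, and the genes most like each member. One gene that this rule names is not reported here. The alternatives were other depth, mitochondrial and UMI limits, thinning, stromal or reticular-like cells only, TMM and per-cell means.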

Additional observations from a re-analysis of the deposited data

Results flagged for a closer look

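Over all gated cells Ly6a had opposite directions after 1 ablation in young and in old mice. The CPM ratio was 0.364 for naive over control and 2.74 for aged-injury over aged. Cd200 did likewise, at 0.824 for naive over control and 1.37 for aged-injury over aged. With 1 library per group neither difference was tested. The pairs differ in age and in the time from surgery to harvest. In the stroma without the fibroblast-like, mural and chondrocyte-like clusters the Ly6a ratios were 1.21 (0.949 to 1.53) for naive over control and 6.22 (5.48 to 7.09) for aged-injury over aged, and those of Cd200 0.793 (0.764 to 0.823) for naive over control and 1.31 (1.28 to 1.34) for aged-injury over aged. In reticular-like cells Cd200 was below 1 in both, at 0.552 (0.515 to 0.591) for naive over control and 0.923 (0.897 to 0.9495) for aged-injury over aged, so its opposite directions were not seen in that class. Preosteoblast-like cells did have them, at 0.780 (0.728 to 0.836) and 1.56 (1.47 to 1.66) in the same order. In the unnamed stromal clusters the ratios were 0.840 (0.687 to 1.03) and 1.80 (1.59 to 2.05). In osteoblast-like cells they were 0.846 (0.766 to 0.934) and 0.942 (0.862 to 1.03).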

How the results depend on the processing

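Leaving out the fibroblast-like cluster, or the 2 unnamed clusters mostly from aged-injury, was chosen after seeing the data. Of 45 ratios, 42 had an interval clear of 1 in all gated cells. The direction of these 42 was the same for 42 with 1000 genes and 2000 UMIs required, without the deepest 5% of cells, without the 2 unnamed clusters and by per-cell means, for 41 in stromal clusters and at a mitochondrial share under 10%, for 40 by TMM scaling, for 38 without the fibroblast-like cluster and for 29 in reticular-like clusters. The 13 that turned there were Pdgfra, Pdgfrb, Thy1 and Nt5e in naive over control, Nt5e in exhausted over control, Thy1 in exhausted over naive, Ly6a, Thy1 and Itgav in aged over control, and Pdgfra, Thy1, Cd200 and Nt5e in aged-injury over aged. TMM moved all log2 ratios by -0.16 in naive over control and by 0.15 in exhausted over naive, and turned Eng in naive over control and Vcam1 in exhausted over naive. Ly6a in naive over control reversed to 1.03 without the fibroblast-like cluster. Nt5e in aged-injury over aged reversed to 0.934 in reticular-like cells (95% interval 0.805 to 1.09). The members past 2-fold in naive over control were 0 in reticular-like cells instead of 1. Without the fibroblast-like cluster the call was Thy1, higher, and no longer Ly6a, which was at 1.03. In exhausted over control 1 member passed 2-fold instead of 0 in reticular-like cells and without the deepest 5%. The same count came without either set of clusters, by TMM and by per-cell means. The gene was not always the same. It was Cd200, lower at 0.436, in reticular-like cells, and Thy1, higher, without the fibroblast-like cluster, where Ly6a was at 0.965. In aged-injury over aged 1 member instead of 2 passed 2-fold in reticular-like cells and without the deepest 5%. That was also so without the 2 unnamed clusters and by per-cell means. Pairs found together reached 22 in exhausted, 17 in naive, 9 in aged-injury, 16 in aged and 21 in control by odds ratios in all gated cells, leftover blood cells included, against 8, 4, 1, 2 and 3 by observed over expected. They were 3 in exhausted and 5 in control after thinning to 3000 UMIs, 2 in naive without the deepest 5%, and 3 in aged-injury without the 2 unnamed clusters. The cause was not tested. No paired analysis was possible because each group has 1 library.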
